A study of Homo sapiens with 4 samples.

Results

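The genes of RNA polymerase II and of its general transcription factors were followed in HEK-293 cells after siRNA treatment. They were taken by symbol, as every gene whose name begins with POLR2 or with GTF2A to GTF2H, every numbered TAF gene with or without a final L, and TBP. This gave 51 of the 24934 gene rows of the expression table, after 5 rows of the same symbols on unplaced or haplotype contigs were left out. HEK-293, an established line from human embryonic kidney, was transfected with 10 nM of siRNA by lipofection, and RNA was taken after 48 h. The siRNAs were si4 and si5, both against ZSCAN5A, si1 against ZSCAN5B, and a scrambled control. Each treatment was sequenced once, giving 4 libraries, so none of the differences below could be set against replicates and no p-values are given. Values are FPKM, fragments scaled to transcript length and to the mapped fragments of the library, so levels of different genes are compared per length. Where values of 4 libraries follow each other without names, their order is si4, si5, si1 and control, and a pair of log2 ratios gives the ZSCAN5A siRNAs first and si1 second.

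RNA polymerase II makes all mRNA precursors. Its largest subunit, POLR2A, forms the catalytic centre together with POLR2B and carries the C-terminal repeat domain (CTD) that is phosphorylated as transcription proceeds. The enzyme cannot find a promoter by itself: TFIID, made of TBP and the TAFs, recognises the core promoter, TFIIA and TFIIB stabilise the contact, TFIIF brings the polymerase, and TFIIE recruits TFIIH, which opens the DNA and phosphorylates the CTD. Most of these genes are used in every cell type, and several TAFs are also parts of histone acetyltransferase complexes related to SAGA.

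The guide strands of the siRNAs are shown because each carries a seed, bases 2 to 8 from the 5′ end, that can also pair with 3′ UTRs of other mRNAs. They are written 5′ to 3′ as DNA, as reverse complements of the target sequences of the study's oligonucleotide list, with the seed in capitals.
si4: tTACACGTaaacctcttctcg
si5: tCTCTTGTggatgactagctt
si1: tAAATGATttattgcacacgt
The letters that pair with the si4 seed, ACGTGTA, occurred in the annotated 3′ UTR of 1 of 43 polymerase and factor genes (GTF2H2C) and of 2.93% of 11402 expressed genes. The si5 match, ACAAGAG, occurred in 2 of the 43 (GTF2H5 and TAF8) and in 9.94% of all. The si1 match, ATCATTT, occurred in 7 of the 43 (GTF2E1, GTF2H2C, GTF2H5, POLR2C, POLR2D, POLR2E and TAF12) and in 20% of all. The annotated 3′ UTRs of POLR2A and TAF4 held none of these letters, and a match is a description, not a site.

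ZSCAN5A stood at 30.2% of the control in the si4 library and at 29.5% in the si5 library, with 0.730, 0.713 and 2.42 FPKM for si4, si5 and the control. ZSCAN5B, the target of si1, was at 0.0948 FPKM with si1 and 0.0903 in the control, or 105% of it, and was at 36.6% with si4 and 73.4% with si5. These levels rest on 6, 17, 16 and 15 fragments, read as whole-number proportions. The proportions were not set against transcript length, so these fragment numbers are uncertain. Exact 95% intervals of the ratio (Clopper-Pearson, counting error only) are 0.116 to 0.999 for si4 and 0.345 to 1.58 for si5. The interval of the si1 ratio runs from 0.486 to 2.28. A ratio below 0.486 lies outside this interval, but a milder knockdown or its absence could not be shown at this depth. The si1 sample is therefore referred to as the library labelled ZSCAN5B knockdown. The libraries held an estimated 54500000 to 84200000 fragments, with si5 the deepest at 1.54 times the control. The relative depths come from the steps of low values alone, whereas the absolute numbers also rest on annotated lengths and are approximate, since that of si5 lies above the read yield stated in the methods of the study. Of the HEK-293 markers, VIM, KRT8, KRT18 and NEFM were at 8.46 FPKM or more in every library, while PAX2 was at 1.16 FPKM in the control and from 0.584 to 0.615 in the siRNA libraries. PTPRC, CD3E, ALB, UMOD and NPHS1, markers of blood, liver and mature kidney, did not exceed 0.0335 FPKM in any library, and COL1A1 of fibroblasts was at 1.10 to 1.85 FPKM.

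The first question was how the machinery as a whole stood after siRNA treatment. Of the 51 genes, 48 reached 1 FPKM and entered the comparisons, and 3 (GTF2A1L, TAF1L and TAF7L) stayed below it in all libraries. With the ZSCAN5A siRNAs, taken as the mean of si4 and si5, 2 of the 48 were more than 1.5-fold below the control (POLR2A and TAF4) and 0 were above it by that much. Over all 12993 genes tested by the same rule, 3.11% were lower and 0.677% were higher, so the 4.17% of polymerase and factor genes that were lower was near the background. In the library labelled ZSCAN5B knockdown, 1 of 48 was lower (POLR2A) and 0 were higher, against 3.17% and 0.844% of all 12921 genes tested. The control library is the same one in both, which makes these comparisons dependent on each other.

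The rest of the machinery was close to the control. Among the 46 tested genes that did not pass the limit with the ZSCAN5A siRNAs, log2 ratios ran from -0.49 to 0.32, and 39 lay within 0.25 of 0. The median log2 ratio over the 48 genes was 0.10, beside -0.02 over all genes tested, and 31 of the 48 (64.6%) were above the control, beside 46.7% of all genes tested. With si1, the 47 others ran from -0.51 to 0.43, 37 of them within 0.25 of 0. There the median was 0.08, beside -0.01 over all genes tested, and again 31 of 48 were above the control, beside 48.5% of all. In such bulk RNA a change in the number of cells of one kind and a change of RNA per cell cannot be told apart.

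**Figure D1:**
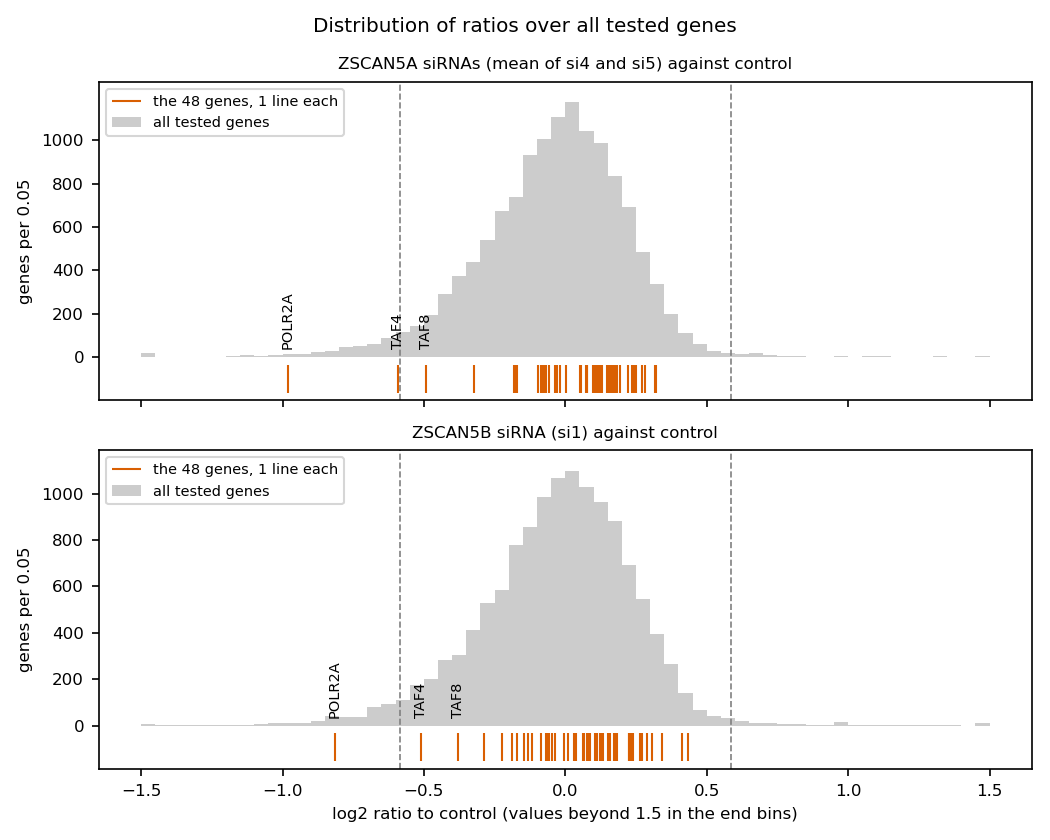
Histogram of the log2 ratio to control (x axis, bins of 0.05) over all tested genes (y axis, genes per bin), with 1 orange line below the axis for each of the 48 polymerase and factor genes and dashed lines at 1.5-fold, for the ZSCAN5A siRNAs (upper panel) and the library labelled ZSCAN5B knockdown (lower panel). POLR2A lies alone at -0.98 and -0.81, followed by TAF4 and TAF8, and the other lines lie in the body of the histogram, most of them to the right of 0.

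POLR2A had the lowest ratio of all these genes. It was already known to be low in these data when the genes were chosen, so its values, rank and intervals are a description. Its level was 14.03 FPKM in si4, 14.9 in si5 and 16.2 in si1, against 28.5 in the scrambled control. All siRNA libraries lay close to each other, within 1.16-fold, and well under the control. The log2 ratio was -0.98 for the mean of si4 and si5, that is 50.7% of the control, and -0.81 (56.9%) in the library labelled ZSCAN5B knockdown. Counted from the lowest ratio, POLR2A was number 52 of 12993 genes with the ZSCAN5A siRNAs and number 113 of 12921 with si1.

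The depth behind these values was high. At the annotated transcript length of 6304 bases, they correspond to about 5263 fragments in si4, 7894 in si5 and 5665 in si1, against 9802 in the control. The ratio to control was 0.492 for si4 (exact 95% interval, Clopper-Pearson, 0.476 to 0.509), 0.521 for si5 (0.506 to 0.537) and 0.569 for si1 (0.550 to 0.588). These intervals cover counting error only and say nothing of variation between cultures. With a single control library, a low POLR2A after siRNA treatment and a high POLR2A in this one control sample cannot be told apart.

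Ratios of all genes moved with transcript length, which bears on POLR2A as a long gene. In the class of genes with like length and GC content, the median log2 ratio was -0.28 with the ZSCAN5A siRNAs. Once this class median was taken off, POLR2A stood at -0.70 with the ZSCAN5A siRNAs, still beyond 1.5-fold. It stood at -0.56 in the library labelled ZSCAN5B knockdown, which is inside the 1.5-fold limit, so that call was lost. The part of length in what remains of this difference was not tested.

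The position of POLR2A among its partners moved with it. In the control, POLR2A ranked 11 of the 12 core subunits by FPKM, above POLR2F alone, and in each siRNA library it ranked last of the 12. POLR2B, the second largest subunit and its partner in the catalytic centre, was at 50.8 FPKM in si4, 45.1 in si5 and 52.4 in si1, against 46.2 in the control. The level of POLR2B over that of POLR2A was thus 3.62 in si4, 3.03 in si5 and 3.23 in si1, against 1.62 in the control. As a share of the summed FPKM of the 12 core subunits, POLR2A took 2.08%, 2.28% and 2.44% in the si4, si5 and si1 libraries and 4.77% in the control. The sum of the 11 other subunits was higher in the siRNA libraries, at 661, 637 and 648 FPKM against 570.0 in the control, which is 1.16, 1.12 and 1.14 times it. The summed FPKM of all gene rows was higher as well, at 1.12, 1.11 and 1.10 times the control.

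The large subunits of the other nuclear polymerases stayed near the control. POLR1A, the largest subunit of Pol I, was at 7.31 FPKM in si4, 6.34 in si5 and 6.04 in si1, against 6.92 in the control. POLR3A, its counterpart in Pol III, was at 13.8, 12.6, 13.9 and 13.3 FPKM in the same order. Their log2 ratios with the ZSCAN5A siRNAs were -0.02 for both, and -0.20 and 0.06 with si1. The second subunits were above the control, POLR1B at 0.24 and POLR3B at 0.08 with the ZSCAN5A siRNAs. POLR1A and POLR3A have annotated transcripts of 6454 and 6610 bases, about as long as that of POLR2A. With length and GC content taken off, their log2 ratios with the ZSCAN5A siRNAs were 0.26 and 0.20. With si1 they were then 0.06 and 0.25.

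POLR2A lies on chromosome 17 from 7387698 to 7417935 in hg19 and overlapped no other gene row of the table. Its promoter and that of TAF4 are shown as the promoters of the 2 genes past the limit, 250 bases before the start site, from RefSeq on build GRCh38.p14. Capitals mark GC boxes, searched as GGGCGG. They also mark the CCAAT box, which was searched by the letters of its name. For the TATA box the letters were TATAAA. Each was read on both strands, and some overlap.
POLR2A, chr17:7484116-7484365, plus strand: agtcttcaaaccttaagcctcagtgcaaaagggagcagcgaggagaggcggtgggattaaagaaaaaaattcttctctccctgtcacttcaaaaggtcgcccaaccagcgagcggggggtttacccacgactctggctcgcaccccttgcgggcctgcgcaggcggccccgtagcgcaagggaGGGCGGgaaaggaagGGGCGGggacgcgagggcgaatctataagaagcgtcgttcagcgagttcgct
TAF4, chr20:62065882-62066131, minus strand: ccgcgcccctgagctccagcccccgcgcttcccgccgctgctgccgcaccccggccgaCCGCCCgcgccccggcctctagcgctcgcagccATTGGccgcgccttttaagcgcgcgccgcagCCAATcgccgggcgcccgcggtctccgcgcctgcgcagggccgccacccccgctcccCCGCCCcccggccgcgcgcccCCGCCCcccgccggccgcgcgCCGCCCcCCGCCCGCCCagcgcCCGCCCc
The POLR2A window held 2 GC boxes, 0 CCAAT boxes and 0 TATA boxes at a GC content of 59.6%. The TAF4 window held 7 GC boxes, 2 CCAAT boxes and 0 TATA boxes at 86.0%. Of the 51 genes, 38 had a RefSeq promoter entry. Among them, 21 (55.3%) held a GC box, 7 (18.4%) a CCAAT box and 2 (5.26%, GTF2B and POLR2M) a TATA box, against 42.6%, 32.0% and 10.7% of all 35116 promoters in the table. These are matches of letters in a fixed window, not sites. The 38 promoters were taken once per symbol. The 35116 were taken as listed and were not limited to expressed genes, so the shares are of unlike sets.

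Apart from POLR2A, the genes with POLR2 symbols that are not shared with other polymerases were near or slightly above the control. They include copies of POLR2J and the associated protein POLR2M, so the counts below are of genes, not of subunits. Of the 11 genes with POLR2 symbols that are not shared, 7 were above and 4 below the control in both comparisons, with median log2 ratios of 0.15 with the ZSCAN5A siRNAs and 0.11 with si1. POLR2J, which pairs with POLR2C in the assembly platform of the enzyme, had the highest ratio with the ZSCAN5A siRNAs. Its level was 66.05 FPKM in si4, 62.8 in si5 and 62.9 in si1, against 53.3 in the control, for log2 ratios of 0.27 and 0.24. Next to POLR2A, POLR2D had the lowest ratio. It forms the stalk of the enzyme with POLR2G, and was at 31.2, 28.5, 28.2 and 31.7 FPKM, a log2 ratio of -0.09 and -0.17. POLR2I, a small zinc-binding subunit, had the highest control level of the group, at 79.1 FPKM against 92.8, 88.0 and 85.04 with si4, si5 and si1. POLR2J4, a copy of POLR2J, had the lowest, at 2.71 FPKM against 2.60, 2.61 and 2.59. With length and GC content taken off, the medians of the 11 genes were 0.08 and 0.04. POLR2J4 then had the highest ratio with the ZSCAN5A siRNAs, at 0.22, and POLR2J3 the lowest after POLR2A, at -0.19.

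Values of POLR2J, POLR2J2, POLR2J3 and POLR2J4 are uncertain as separate genes, since these near-identical copies can share fragments. POLR2J2 had a log2 ratio of 0.15 and POLR2J3 of -0.08 with the ZSCAN5A siRNAs. POLR2M, which associates with the polymerase and shares its locus with GCOM1, was at 17.7, 17.5 and 17.3 FPKM with si4, si5 and si1 and 14.8 in the control. In all, 21 of the 51 genes overlapped another gene row, and the counting of strands is not stated in the sources used here.

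**Figure D2:**
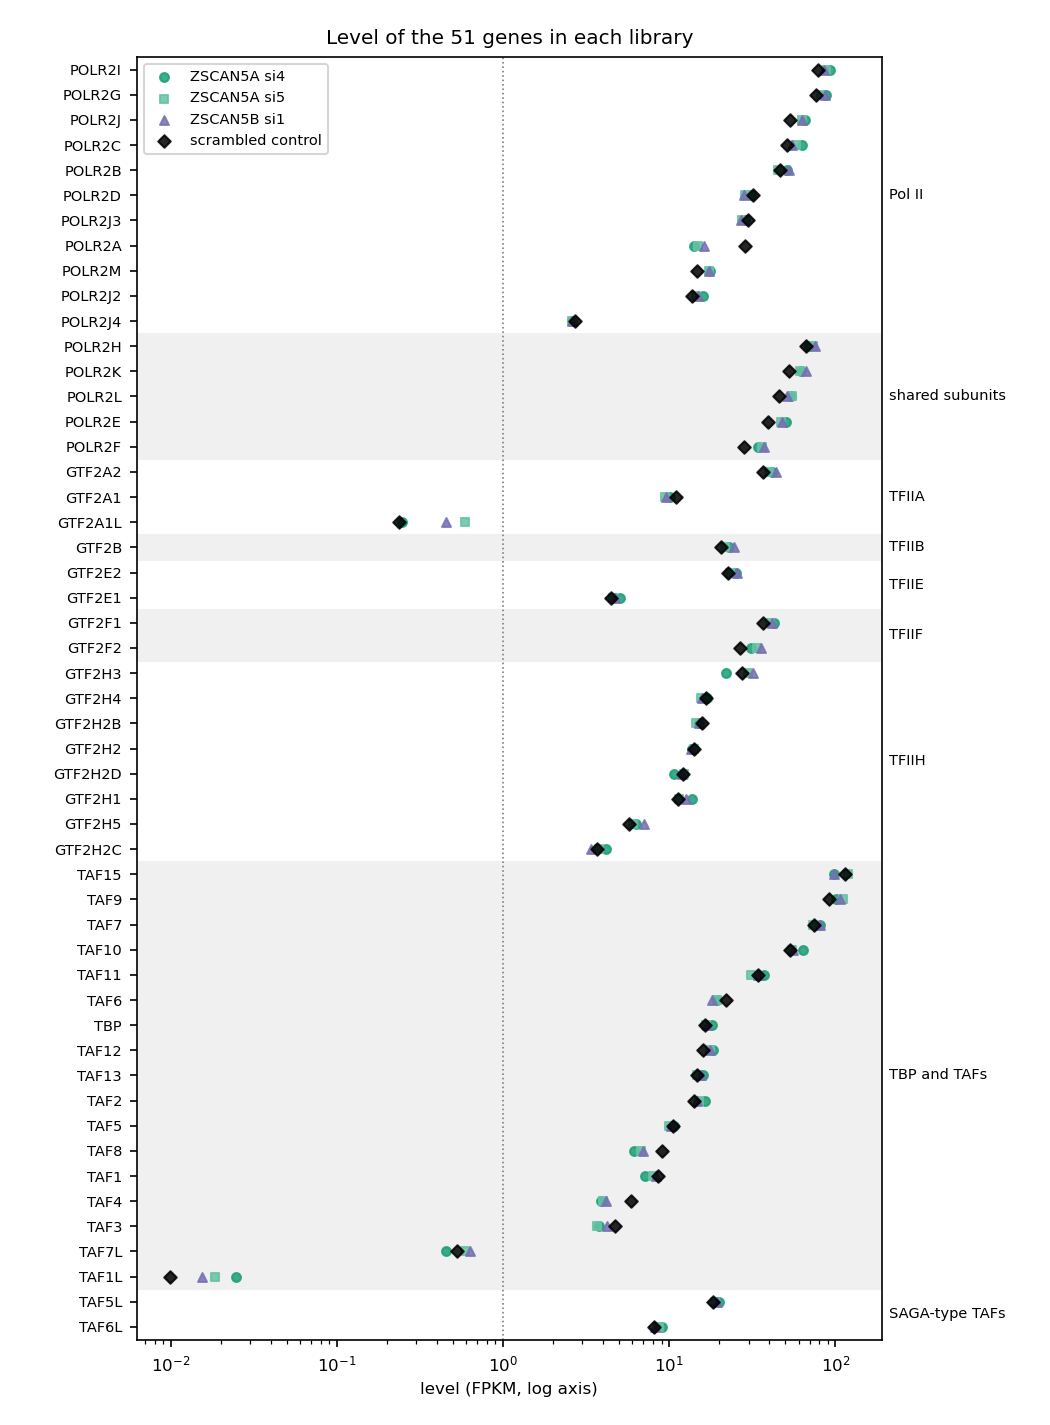
Level of each of the 51 genes (FPKM, log axis) in the 4 libraries, grouped by complex and ordered within it by the control level, with a dotted line at 1 FPKM. The control level of POLR2A, 28.5 FPKM, is apart from the 14.03 to 16.2 FPKM of the siRNA libraries, and symbols are also spread for TAF4, TAF8, GTF2H3 and genes below 1 FPKM.

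The subunits that Pol II shares with Pol I and Pol III were all above the control. POLR2E, POLR2F, POLR2H, POLR2K and POLR2L had a median log2 ratio of 0.25 with the ZSCAN5A siRNAs and 0.29 with si1, and 5 of 5 were above the control in each. POLR2F had the highest ratio of all 48 genes with the ZSCAN5A siRNAs. It was at 34.0 FPKM in si4, 36.2 in si5 and 37.4 in si1, against 28.1 in the control, for log2 ratios of 0.32 and 0.41. POLR2E, a subunit of the jaw, followed with 50.4, 47.4, 47.9 and 39.3 FPKM and log2 ratios of 0.32 and 0.29. POLR2H was least apart from the control with the ZSCAN5A siRNAs, at 69.4, 72.9, 75.1 and 66.5 FPKM, with log2 ratios of 0.10 and 0.18. None of the 5 passed 1.5-fold. With length and GC content taken off, the group medians were 0.17 and 0.15, and POLR2H stood at -0.01 with the ZSCAN5A siRNAs.

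TFIIB, TFIIE and TFIIF, the factors that bring the polymerase to the promoter and hand over to TFIIH, were each slightly above the control. GTF2B, the only subunit of TFIIB, was at 22.9 FPKM in si4, 21.5 in si5 and 24.6 in si1, against 20.4 in the control, for log2 ratios of 0.12 and 0.27. In TFIIE, GTF2E1 was at 5.03, 4.62, 4.70 and 4.44 FPKM and GTF2E2 at 25.3, 23.3, 25.4 and 22.6 FPKM. The level of GTF2E2 over GTF2E1 stayed between 5.03 and 5.42 in the 4 libraries. With length and GC content taken off, GTF2B stood at log2 ratios of 0.02 and 0.14. The medians were then 0.089 and 0.082 for TFIIE, and 0.165 and 0.208 for TFIIF.

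TFIIF held the gene with the highest ratio in the library labelled ZSCAN5B knockdown. GTF2F2, the smaller subunit, was at 31.1 FPKM in si4, 33.6 in si5 and 35.9 in si1, against 26.6 in the control, with log2 ratios of 0.28 and 0.43. The larger subunit GTF2F1 was at 43.0, 40.2, 41.6 and 36.7 FPKM, with log2 ratios of 0.18 in each comparison. TFIIA was divided. GTF2A2 was at 41.8, 40.02, 43.9 and 36.5 FPKM (log2 ratios of 0.16 and 0.26), whereas GTF2A1, the precursor of its partner subunits, was at 10.1, 9.41, 9.62 and 10.97 FPKM (-0.17 and -0.19). GTF2A1L, a testis form of GTF2A1, was below 1 FPKM, at 0.246, 0.590, 0.451 and 0.236, and its locus overlaps the read-through gene STON1-GTF2A1L.

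TFIIH subunits were level with the control. The 8 genes with GTF2H symbols had median log2 ratios of -0.03 in both comparisons, with 3 above and 5 below the control. This split was not stable to scaling, as 5 were above with the ZSCAN5A siRNAs after median-ratio scaling. GTF2H1, a core subunit, was at 13.7 FPKM in si4, 11.5 in si5 and 12.5 in si1, against 11.3 in the control (log2 ratios of 0.16 and 0.15). GTF2H3, the most abundant of the group in the control, separated the ZSCAN5A siRNAs. It was at 22.0 FPKM with si4, below the control at 27.3, but at 29.9 with si5 and 32.1 with si1, above it.

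GTF2H2, GTF2H2B, GTF2H2C and GTF2H2D are copies of one another, and GTF2H2C and GTF2H2D lie at the same locus in this annotation, so their single values are uncertain. GTF2H2B had the lowest ratio of the 8 with the ZSCAN5A siRNAs, at 15.2, 14.4, 15.2 and 15.8 FPKM. GTF2H2C had the lowest level, at 4.15, 3.80, 3.39 and 3.68 FPKM. The other TFIIH subunits are the helicases ERCC2 and ERCC3 and the kinase module CDK7, CCNH and MNAT1. Their median log2 ratio was 0.14 with the ZSCAN5A siRNAs and 0.24 with si1, and 0 of 5 passed 1.5-fold. With length and GC content taken off, the median of these 5 was 0.055 in each comparison. Among them CDK7, the kinase of the CTD, was at 26.7, 23.8, 27.3 and 21.3 FPKM, and ERCC3, the translocase that opens DNA, at 37.0, 37.2, 37.4 and 39.6 FPKM.

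**Figure D3:**
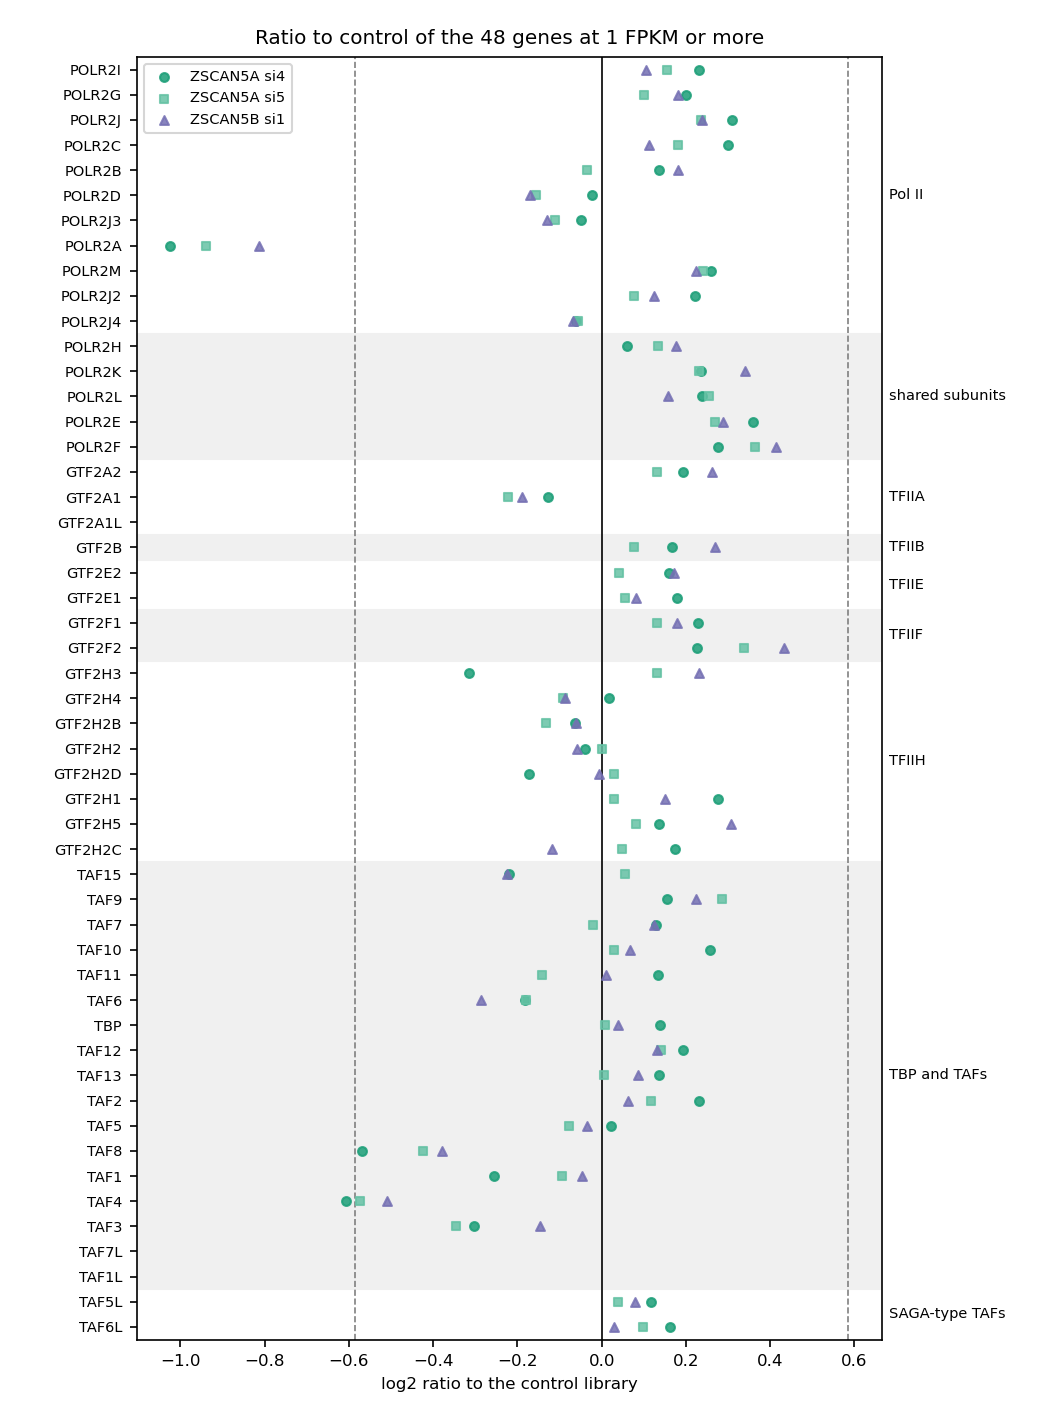
Log2 ratio to the control library (x axis) of each of the 48 genes at 1 FPKM or more, in the same order as the plot of levels, with a symbol for each siRNA library and dashed lines at 1.5-fold. The shared subunits all lie right of 0, POLR2A lies at -1.02, -0.94 and -0.81 for si4, si5 and si1, and in the TAF group TAF4, TAF8 and TAF3 lie left of 0 while TAF9 and TAF12 lie right of it.

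In TFIID the TAFs did not move as one. The 15 tested genes of this group, TBP included, had median log2 ratios of 0.003 with the ZSCAN5A siRNAs and 0.01 with si1, with 8 above and 7 below the control in each. This split was not stable. With length and GC content taken off, 7 were above and 8 below with the ZSCAN5A siRNAs. With si1, 4 were then above and 10 below, and TAF10 was at 0.00. TBP itself, which binds the TATA box, was at 18.1 FPKM in si4, 16.6 in si5 and 16.9 in si1, against 16.5 in the control, for log2 ratios of 0.08 and 0.04. TAF1, the scaffold that holds TBP, was at 7.16, 8.003, 8.27 and 8.54 FPKM (log2 ratios of -0.17 and -0.05).

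TAF4 was the lowest of the group. It is a core TAF that pairs with TAF12 through a histone fold. Its level was 3.88 FPKM in si4, 3.98 in si5 and 4.16 in si1, against 5.92 in the control. The siRNA libraries were again close to each other and below the control, with log2 ratios of -0.59 with the ZSCAN5A siRNAs and -0.51 in the library labelled ZSCAN5B knockdown. From about 1086, 1572, 1082 and 1515 fragments, the ratio to control was 0.656 for si4 (exact 95% interval 0.607 to 0.710), 0.672 for si5 (0.626 to 0.721) and 0.703 for si1 (0.649 to 0.760). TAF4 only just passed the limit. It no longer did so under median-ratio or upper-quartile scaling, with a pseudocount, with si5 alone, or with length and GC content taken off, where its log2 ratio was -0.46. TAF4 lies on chromosome 20 from 60549854 to 60640866 in hg19, and its annotated transcript has 4699 bases.

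TAF8, TAF3 and TAF6 were singled out after their values were seen. TAF8, which enters TFIID as a pair with TAF10, was just inside the limit. It was at 6.10 FPKM in si4, 6.74 in si5 and 6.96 in si1, against 9.05 in the control, with log2 ratios of -0.49 and -0.38. TAF3, which binds histone H3 and also pairs with TAF10, was at 3.80, 3.69, 4.24 and 4.69 FPKM (-0.32 and -0.15). TAF6, the partner of TAF9, was at 19.3, 19.4, 17.99 and 21.9 FPKM (-0.18 and -0.29). In these genes every siRNA library was below the control.

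The histone-fold partners of TAF4, TAF8 and TAF6 were above the control before length and GC content were taken off. TAF9 had the highest ratio of the group, at 101, 111, 106 and 91.0 FPKM, log2 ratios of 0.22 in both comparisons, although its locus overlaps RAD17. TAF12 was at 18.2 FPKM in si4, 17.6 in si5 and 17.5 in si1, against 15.9 in the control, and TAF10 at 63.7, 54.5, 55.9 and 53.4 FPKM. The level of TAF12 over TAF4 was therefore 4.70, 4.42 and 4.20 in the siRNA libraries and 2.70 in the control. That of TAF10 over TAF8 was 10.4, 8.07 and 8.03 against 5.90, and that of TAF9 over TAF6 was 5.24, 5.72 and 5.91 against 4.15. The pair TAF11 and TAF13 differed less, with TAF13 over TAF11 at 0.430, 0.475 and 0.453 against 0.429. With length and GC content taken off, log2 ratios of TAF12, TAF10 and TAF9 were 0.04, 0.07 and 0.09 with the ZSCAN5A siRNAs. With si1 they were -0.02, 0.00 and 0.07.

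**Figure D4:**
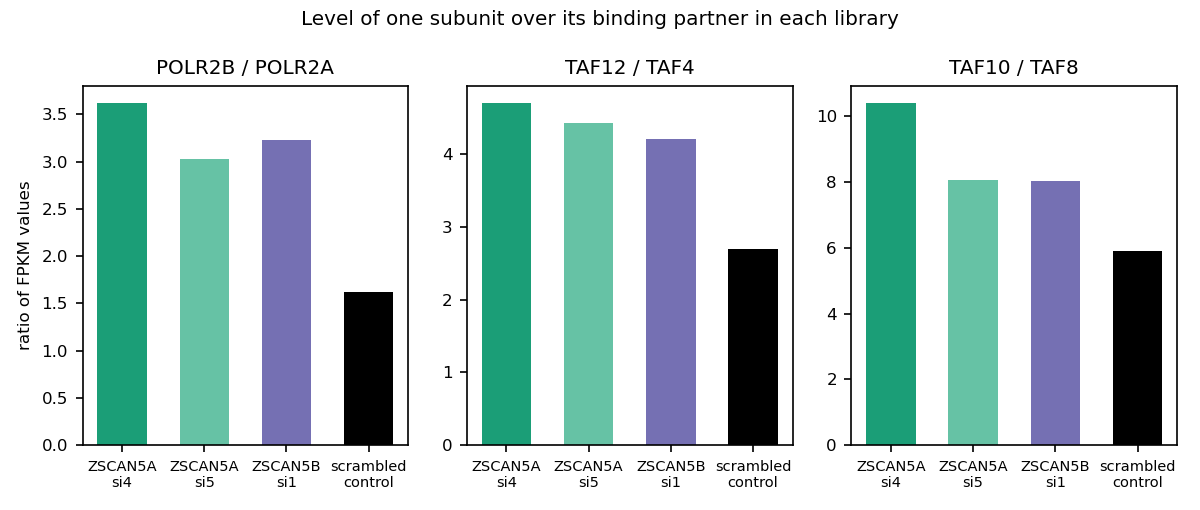
Ratio of FPKM values (bars from 0) of POLR2B to POLR2A, TAF12 to TAF4 and TAF10 to TAF8 in each of the 4 libraries, 1 library per bar and hence no error bars. In each panel the control has the lowest bar, at 1.62, 2.70 and 5.90, and the 3 siRNA libraries are higher. The partners differ in transcript length, and the trend with length was not taken off here.

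The remaining TAFs covered a wide range of levels. TAF15, an RNA-binding protein of the FET family that associates with TFIID, was the most abundant of the 51 genes in the control, at 115 FPKM, and was at 98.4 FPKM in si4, 119 in si5 and 98.2 in si1. The order of libraries was thus not that of TAF4. TAF5L and TAF6L, which replace TAF5 and TAF6 in SAGA-type complexes, were at 18.3 and 8.08 FPKM in the control. Their log2 ratios were 0.08 and 0.13 with the ZSCAN5A siRNAs and 0.08 and 0.03 with si1. TAF7L and TAF1L, germline copies of TAF7 and TAF1, were below 1 FPKM throughout. TAF7L was at 0.451 to 0.631 FPKM. TAF1L can share fragments with TAF1, and its values stood in whole-number proportions of 19, 20, 11 and 7. These proportions were not set against its length, so its fragment numbers are uncertain.

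How far libraries differ without a change of target gene was read from si4 against si5, a comparison that does not use the control. Over the 48 genes the absolute log2 ratio between both libraries had a median of 0.098, beside 0.114 over all 12800 genes above the limit. The ratios ran from -0.45 (GTF2H3) to 0.28 (TAF11), and 0 of 48 exceeded 1.5-fold, against 2.53% of all genes. For POLR2A this difference was -0.08 and for TAF4 -0.03. Both values are smaller than the distance of either gene from the control, but a distance between 2 treated libraries is no measure of the spread between control cultures.

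Longer transcripts had lower ratios, in these genes as in the whole table. Over the 47 tested genes with an annotated transcript, Spearman's rho between length and log2 ratio was -0.36 with the ZSCAN5A siRNAs and -0.30 with si1, beside -0.34 over all genes in each comparison. These points share 1 control library. Of the 8 genes with 4000 bases or more, 3 were above and 5 below the control with the ZSCAN5A siRNAs, with a median log2 ratio of -0.12, beside -0.11 over all 3993 genes of that length. The 39 shorter ones had a median of 0.11, beside 0.02 over all. With length and GC content taken off, the median of the 47 genes was 0.04 with the ZSCAN5A siRNAs and 0.03 with si1.

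**Figure D5:**
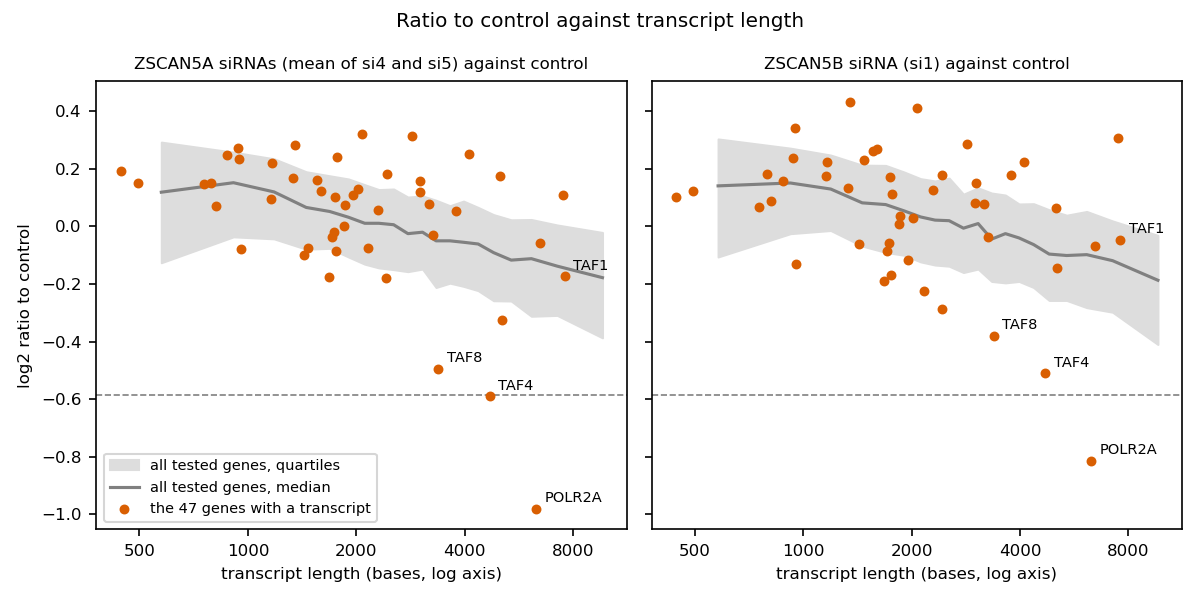
Log2 ratio to control against transcript length (bases, log axis) for the 47 genes with an annotated transcript (orange), with the median (grey line) and quartiles (grey band) over all tested genes in 20 length classes, for both comparisons. With the ZSCAN5A siRNAs 9 of the 47 lie below the band, POLR2A, TAF4 and TAF8 among them, and 11 above it, with si1 9 below and 13 above, while TAF1, the longest transcript at 7599 bases, lies within it.

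Genes that act on Pol II beyond the general factors were also counted. Of 30 tested elongation and pausing factors, 0 passed 1.5-fold in either direction in either comparison, with median log2 ratios of 0.04 and 0.03. LARP7 is part of the RNA-protein complex that holds the elongation kinase P-TEFb inactive. It had the highest ratio with the ZSCAN5A siRNAs, at 24.6, 23.8, 23.0 and 18.4 FPKM in the si4, si5, si1 and control libraries. AFF4, the scaffold of the super elongation complex, had the lowest there, at 13.6, 15.9, 16.4 and 18.1 FPKM. With length and GC content taken off, the medians of the 30 were 0.10 and 0.09, with 21 above the control in each comparison.

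Another list held 16 genes for kinases, phosphatases and binding proteins of the CTD, the domain carried by POLR2A. The kinases CDK7 and CDK9 were counted in other lists, at log2 ratios of 0.245 and 0.357 for CDK7 and 0.003 and 0.131 for CDK9. Most of the 16 were lower than in the scrambled control. With the ZSCAN5A siRNAs 12 of 16 were below it, beside 6929 of all 12993 genes tested. The median log2 ratio of the 16 was -0.15, and 0 of them passed 1.5-fold. Their transcripts are long, with a median of 4587 bases beside 2913 over all genes tested, and with length and GC content taken off 8 were above and 8 below the control with the ZSCAN5A siRNAs, and 6 above and 10 below with si1. By the ratio with the ZSCAN5A siRNAs, RPRD2, of the RPRD family of CTD-binding proteins, was lowest, at 4.26, 4.48, 4.32 and 6.29 FPKM, and the phosphatase SSU72 was highest, at 84.4, 86.1, 78.4 and 74.6 FPKM. In the library labelled ZSCAN5B knockdown the median was -0.17, and 3.17% of all 12921 genes tested were more than 1.5-fold lower. Of the 16 genes, 1 was lower by that much. This was RPRD1B, at 7.58 FPKM with si1 against 12.3 with si4, 12.8 with si5 and 13.3 in the control, a log2 ratio of -0.81.

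Of 11 factors that assemble and import Pol II, 9 were slightly above the control in each comparison and 0 passed 1.5-fold, with median log2 ratios of 0.27 and 0.21. With a median transcript of 1545 bases they are shorter than most genes, and with length and GC content taken off the medians were 0.16 and 0.05. RUVBL2, an ATPase of the chaperone complex that builds the polymerase, was at 154 FPKM in si4, 148 in si5 and 159 in si1, against 117 in the control. RPAP1, which takes part in the same assembly, was at 6.57, 5.35, 5.82 and 6.60 FPKM. Of 5 TBP and TAF relatives outside the symbol rule, 4 were tested and 0 passed, with TAF9B highest at 27.5, 24.1, 22.9 and 20.7 FPKM and BTAF1, which removes TBP from DNA, lowest at 19.01, 17.8, 19.5 and 20.8 FPKM.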

How the data were processed

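In all, 4 libraries of HEK-293 RNA were used, 1 per siRNA. The submitters' processing notes name CASAVA 1.8.2, Trimmomatic 0.30, TopHat2 2.1.0, Cufflinks 2.2.1 and build hg19. The authors deposited 1 table of FPKM values, which was used as deposited, and it holds 0 other per-sample columns. The labels and the study's methods name different stranded mRNA kits. Ratios to control were taken without a pseudocount, at 1 FPKM or more in at least 1 library, with rows at 0 on one side left out and a limit of 1.5-fold. The depth was estimated from whole-number steps of values under 0.1 FPKM, which fitted 70.1% of 1745 genes within 0.05%. Fragments are FPKM times annotated length times depth, or such steps. Transcript length, GC content and 3′ UTRs came from GENCODE lifted to GRCh37, for 50 of the 51 genes. Length and GC content were removed as medians of 5 by 5 classes. Complex members, the values printed for each complex (highest and lowest ratio and control level, and every gene past the limit) and the other gene lists were fixed by a rule, but members and lists were chosen with earlier results of these data known. Values of POLR2B, POLR2D, POLR2E, POLR2J2, POLR2J3, POLR2M, TBP, TAF1, TAF3, TAF6, TAF7L, TAF8, TAF10, TAF11, TAF12 and TAF13 are printed outside this rule. The ratio rule and depth estimate were tested on simulated data. Alternatives covered scaling, expression and fold limits, pseudocounts, single siRNAs, rows sharing a symbol, and length with GC content. Python 3.11.15, pandas 2.3.3, NumPy 2.4.6, SciPy 1.17.1 and matplotlib 3.10.9 were used.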

Additional observations from a re-analysis of the deposited data

How the results depend on the processing

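The log2 ratios of POLR2A and the medians over the polymerase and factor genes kept their sign under every alternative tried, and moved by more than the standard deviation between si4 and si5 only for POLR2A with length and GC content removed, to -0.70 with the ZSCAN5A siRNAs and -0.56 with si1. Counts were small and moved more. The 2 genes lower with the ZSCAN5A siRNAs became 1 (POLR2A) under median-ratio scaling, upper-quartile scaling, a pseudocount of 0.1 or 1 FPKM, si5 alone and with length and GC content removed, and 0 at a fold limit of 2, since POLR2A stood at 50.7% of the control. At a limit of 1.3 they became 3 (POLR2A, TAF4 and TAF8). The 1 gene lower with si1 became 3 (POLR2A, TAF4 and TAF8) at a fold limit of 1.3, and 0 at a limit of 2 and with length and GC content removed. The 0 higher genes became 2 (GTF2A1L and TAF1L) without the expression limit in both comparisons, and 2 (GTF2F2 and POLR2F) with si1 at a fold limit of 1.3. In all, 63 values stayed the same, counts within 1.5 times and log2 values within the standard deviation between si4 and si5, and 15 moved. Scaling raised the ratios by 0.01 to 0.04. No paired analysis was possible because each treatment has 1 library and the labels give no replicate numbers.

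Genes below 1 FPKM rest on few fragments, and a count of genes past a limit cannot be separated from variation between cultures with 1 control library. Fragment numbers depend on the annotated transcript length; the length behind the FPKM values is not given in the sources used here.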
